A study of Mus musculus with 6 samples.

Results

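The 6 genes described here encode proteins that shape or end the response of an olfactory sensory neuron to odour, or that belong to its cilia and its own metabolism: Omp, Pde1c, Pde4a, Stoml3, Umodl1 and Carns1. They were taken by symbol from a table of raw gene counts of 53686 symbols, and 5 of the 6 had enough reads to test. The tissue was the main olfactory epithelium, the lining of the nose that holds the olfactory sensory neurons, dissected from mice of the C57BL/6J strain. Of 6 libraries, 3 came from mice with a hemizygous 5x21-OR1A1 transgene, named for an odorant receptor, and 3 from wild-type mice. The series title is about the choice of odorant receptors, studied with such a transgene. The transgene's promoter and copy number and the animals' age were not stated in the labels. The labels number the replicates and name no animals, so the p-values measure spread between libraries. Counts of Xist and Y-linked genes showed libraries of both sexes in each group, so the libraries of a group did not all come from the same animal, but whether each came from an animal of its own was not stated.

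An odorant receptor in the cilia of an olfactory sensory neuron acts through the G protein Golf and adenylyl cyclase 3 to raise cAMP, which opens a cation channel and then a calcium-activated chloride channel. The signal ends when cAMP is broken down by phosphodiesterases, when calcium and calmodulin close the channel and when calcium is pumped or exchanged out of the cilium. Olfactory marker protein, the product of Omp, is abundant in mature neurons and speeds the rise and fall of their response. Pde1c, a calcium- and calmodulin-activated phosphodiesterase, lies in the cilia, and Pde4a, a cAMP-specific phosphodiesterase, lies in the rest of the neuron. Stoml3 is a stomatin-like membrane protein of the olfactory cilia, Umodl1 (also called olfactorin) is a protein with a zona pellucida domain found in olfactory neurons, and Carns1 makes carnosine, a dipeptide abundant in these neurons.

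The sequence before the start of Stoml3 and Umodl1 is shown because these are the ciliary or neuronal members with a single upstream window in the RefSeq table (GRCm38.p6), and because Ebf proteins, first found through their binding near the Omp gene, are known regulators of genes of mature olfactory neurons. Each is printed 5′ to 3′ on the plus strand, from 250 bases before the RefSeq start up to the earliest annotated start of the gene. No base of an annotated transcript of the gene itself is thus included. The stretch of Umodl1 lies inside the span of an antisense gene, AC165951.1, and whether exons of that gene reach it was not checked. Capitals mark the letters CCCNNGGG, the core of the Ebf motif.
Stoml3 (chr3:53488457-53488652): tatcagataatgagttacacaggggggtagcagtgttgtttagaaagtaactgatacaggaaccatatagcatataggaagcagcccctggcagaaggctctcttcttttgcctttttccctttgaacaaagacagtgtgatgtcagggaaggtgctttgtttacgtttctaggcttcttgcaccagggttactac
Umodl1 (chr17:30954433-30954639): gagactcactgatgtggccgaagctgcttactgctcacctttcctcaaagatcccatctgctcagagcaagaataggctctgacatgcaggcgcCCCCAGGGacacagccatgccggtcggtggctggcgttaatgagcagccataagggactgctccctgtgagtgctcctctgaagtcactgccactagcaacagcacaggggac

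Windows were matched by symbol for 4 of the 6 genes, all but Omp and Carns1, and made 8 windows. Then 3 motifs were searched on both strands of the 250 bases before each start. These were the Ebf core CCCNNGGG, the Ebf palindrome, which is that core with a T before it and an A after it, and the homeodomain motif TAATTA. Every match of the palindrome is also a match of the core. The core was found at -156 to -149 from the RefSeq start of Umodl1, and at -240 to -233 and -156 to -149 in 1 of the 3 windows of Pde4a. The window of Stoml3 and the 3 windows of Pde1c held none of these letters, and no window held the palindrome or TAATTA. Of all 32851 windows in the RefSeq table, 11.8% held the core, 0.779% the palindrome and 4.84% TAATTA. These matches describe the letters and are not evidence of binding.

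Transcripts of Omp and Umodl1 fell in 5x21-OR1A1 tissue, and those of Stoml3, Pde1c and Pde4a had fitted levels of 59.6%, 67.4% and 68.1% of wild-type without passing the test. All 5 genes had each of the 3 transgenic libraries below each of the 3 wild-type libraries, as had 12.5% of all 19267 tested genes. The calls rest on edgeR's quasi-likelihood test on counts, with Benjamini-Hochberg adjustment over all tested genes and a threshold of 0.05, which 2.20% of the tested genes passed as lower in transgenic tissue. None of the 5 passed as higher, as 0.519% of all genes did. None of the 5 was called without transgenic library 1, 2 or 3, where 0.693%, 0.769% and 0.692% of all genes were called lower. The same held without wild-type library 2 (1.33%) or 3 (1.86%), with sex as a covariate (1.23%), with scaling to mature neuron markers (1.45%) and at an adjusted p under 0.01 (0.737%). Without wild-type library 1, 4 were called lower, beside 2.41% of all genes. DESeq2 called all 5 (4.71% of its genes), edgeR without a filter 5 (1.82%), and limma-voom (2.07%) and upper quartile scaling (2.20%) 3 each. In bulk tissue, fewer neurons and less RNA per neuron cannot be told apart.

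Levels are given in CPM, counts per 1000000 of the library total after TMM scaling. Omp, on chromosome 7 at 98143359 to 98145502 of GRCm38 (minus strand, 1 exon), had 6700, 7005 and 6655 CPM in the 3 transgenic libraries, against 9695, 12517 and 12341 CPM in the 3 wild-type libraries. The transgenic libraries lay close together, with a coefficient of variation of 2.81%, and wild-type library 1 was the lowest of its group, where the coefficient was 13.7%. The log2 fold change was -0.76 (SE 0.14, 95% interval -1.08 to -0.44, edgeR adjusted p = 0.0305). The adjusted p was 0.151, 0.140 and 0.148 without transgenic library 1, 2 or 3, and 0.0182, 0.0534 and 0.0563 without wild-type library 1, 2 or 3. Omp lies inside the span of Capn5 on the same strand and shares no exon base with it, and Capn5 had 456 to 710 counts, against at least 180702 for Omp.

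Pde1c and Pde4a, which break down cAMP in the cilium and in the rest of the neuron, had fold changes close to each other. Pde1c, on chromosome 6 at 56069804 to 56569103 (minus strand), had 221, 226 and 195 CPM in transgenic libraries, against 256, 375 and 322 CPM in wild-type libraries. The groups did not overlap, and wild-type library 2 was the highest. Its log2 fold change was -0.57 (SE 0.14, 95% interval -0.90 to -0.24, edgeR adjusted p = 0.0905). Pde4a, on chromosome 9 at 21165714 to 21213248 (plus strand), had 143, 182 and 146 CPM in transgenic libraries, against 215, 263 and 213 CPM in wild-type libraries. Transgenic library 2 and wild-type library 2 stood above the others of their groups. Its log2 fold change was -0.55 (SE 0.13, 95% interval -0.85 to -0.26, edgeR adjusted p = 0.0713). The fold changes of these genes did not pass the threshold, and their intervals reach no further up than -0.24.

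Stoml3, the stomatin-like protein of olfactory cilia, lies on chromosome 3 at 53488653 to 53508502 (plus strand). It had 1414, 1523 and 1278 CPM in transgenic libraries, against 1915, 2803 and 2358 CPM in wild-type libraries. The groups did not overlap, and the wild-type libraries were as spread as for Pde1c, with a coefficient of variation of 18.8% in both genes. The log2 fold change was -0.75 (SE 0.16, 95% interval -1.11 to -0.38, edgeR adjusted p = 0.0538), which missed the threshold. Stoml3 passed with limma-voom (adjusted p = 0.0409) and with upper quartile scaling in edgeR (adjusted p = 0.0492).

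Umodl1, on chromosome 17 at 30954640 to 31010710 (plus strand), had 416, 498 and 396 CPM in transgenic libraries, against 641, 838 and 672 CPM in wild-type libraries. Library 2 of each group was the highest, and the groups stayed apart. The log2 fold change was -0.71 (SE 0.14, 95% interval -1.04 to -0.39, edgeR adjusted p = 0.0416). The adjusted p was 0.179, 0.0788 and 0.185 without transgenic library 1, 2 or 3, and 0.0432, 0.0816 and 0.0687 without wild-type library 1, 2 or 3. The antisense genes annotated over its span, AC165951.1 and AC165951.3, share no exon base with it. The libraries did not keep strand, so reads of these antisense genes could be told apart from those of Umodl1 only by position.

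**Figure D1:**
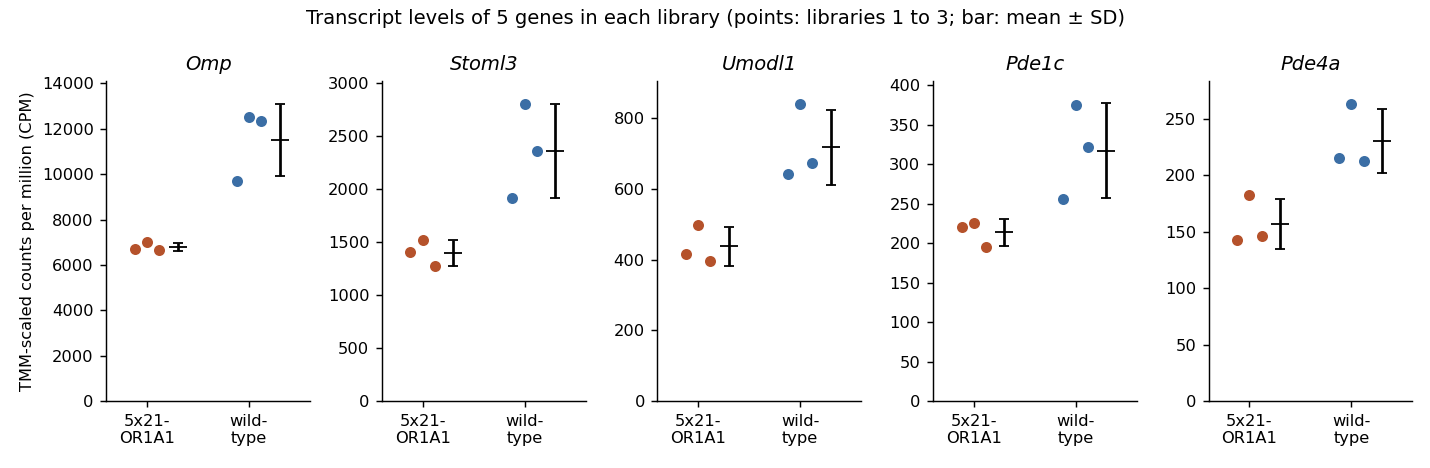
TMM-scaled CPM of Omp, Stoml3, Umodl1, Pde1c and Pde4a in each library, 5x21-OR1A1 left and wild-type right, with a bar for the mean ± SD of 3 libraries. In each gene the 3 transgenic libraries lie below the 3 wild-type libraries, for Omp at 6655 to 7005 against 9695 to 12517 CPM.

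Carns1, the synthase of carnosine and homocarnosine, is listed at 0 counts in all 6 libraries and could not be compared. It lies on chromosome 19 at 4164324 to 4175479 (minus strand), inside a run of 19 neighbouring coding genes with at most 10 counts over all libraries together. Of 21636 coding genes found once in the annotation, 2409 (11.1%) were at 0 in all libraries, as were 68 of 705 on chromosome 19. The run spans 198 kb, from Gstp1 to Pold4 (4035407 to 4233634), and 17 of its genes were at exactly 0. Among these were Ppp1ca, a catalytic subunit of protein phosphatase 1, Rps6kb2, a ribosomal S6 kinase, and Rad9a, a DNA damage checkpoint gene. These are genes that most cells use, so the 0 of Carns1 cannot be read as an absence of its transcript. The nearest coding genes outside the run, Ndufv1 of mitochondrial complex I and Ssh3, a cofilin phosphatase, had means of 8426 and 808 counts per library. Of the 4525 exon bases of Carns1, 1345 also lie in exons of AC109138.8 on the same strand and 1825 in exons of Gm17552 on the opposite strand, and the rows of these genes are at 0 as well. The run was described after the 0 of Carns1 had been seen, and its cause was not tested.

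**Figure D2:**
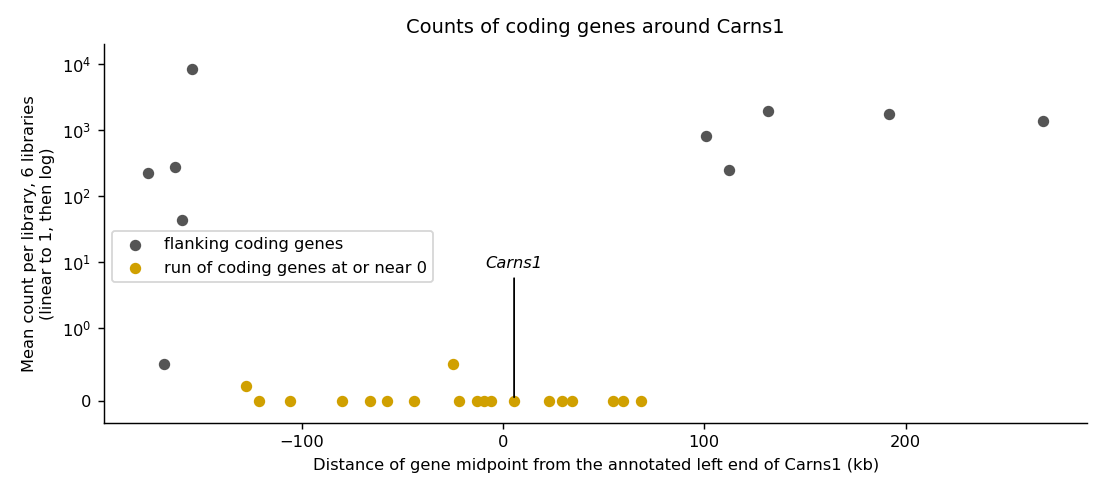
Mean count per library (6 libraries, vertical axis linear up to 1 and logarithmic above) of coding genes around Carns1, against the distance of their midpoint from its annotated left end in kb. The 19 genes of the run, Carns1 among them, lie at or near 0, between Ndufv1 at 8426 and Ssh3 at 808 counts.

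Per length, Omp was the most abundant of the 5 genes in both groups. It had 3165 ± 88.8 CPM per kb of exon in transgenic and 5372 ± 738 in wild-type tissue (SD, n = 3 each). Stoml3 followed with 653 ± 57.1 and 1097 ± 206 CPM per kb in transgenic and wild-type tissue, and Umodl1 with 84.1 ± 10.5 and 138 ± 20.3. Pde4a had 20.5 ± 2.87 and 30.1 ± 3.75 CPM per kb in transgenic and wild-type tissue, and Pde1c 10.7 ± 0.833 and 15.8 ± 2.97. No neighbours in this order overlapped within a group. The exon length of Pde1c counts every annotated exon, 20067 bases in all, and the transcript present may be shorter, which would place its level higher.

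Together the 6 genes took 0.901% ± 0.0389 of counts in transgenic and 1.51% ± 0.206 in wild-type libraries (SD, n = 3 each), a log2 difference of -0.74 (SE 0.12). Omp made up 75.4% ± 1.26 of these counts in transgenic and 76.1% ± 1.53 in wild-type libraries. Without it the difference was -0.70 (SE 0.17).

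The 5 genes were then set against each other within each library, which removes a change they share. Of the 10 pairs, the log2 ratio of the counts differed by at most 0.20 in size between genotypes, and the groups stayed apart in 2. The ratio of Pde1c to Stoml3 was 0.15 in transgenic and 0.13 in wild-type tissue, a log2 difference of 0.18 (SE 0.023; two-sided exact permutation test, p = 0.1, adjusted p = 0.4 over 10 pairs). The ratio of Pde4a to Umodl1 was 0.36 in transgenic and 0.32 in wild-type tissue, a log2 difference of 0.16 (SE 0.044; two-sided exact permutation test, p = 0.1, adjusted p = 0.4). An exact permutation test of 3 against 3 libraries cannot go under p = 0.1. Omp and Stoml3 differed by -0.02 (SE 0.088) and Pde1c and Pde4a by 0.001 (SE 0.14) on the same scale. No pair passed its test.

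Levels of the 5 genes were also read against 11 other markers of mature olfactory neurons, none of them among the 6 genes. Of these, 7 are transduction genes, and 3 of the 11 fell in the edgeR test: Gng13, Cnga4 and Gfy. Over all tested genes 2.20% fell. The log2 fold changes of the 11 ran from -0.81 to -0.06, with a median of -0.60. The markers took 0.533, 0.581 and 0.515% of counts in transgenic libraries, against 0.767, 0.999 and 0.740% in wild-type libraries, a log2 difference of -0.61 (SE 0.15). Per count of these markers, Omp stood at 125% ± 6.33 in transgenic and 139% ± 18.4 in wild-type tissue (SD, n = 3 each), a log2 difference of -0.14 (SE 0.12), and the groups overlapped. Stoml3 differed by -0.12 (SE 0.091), Pde1c by 0.06 (SE 0.10) and Pde4a by 0.06 (SE 0.054), also with overlap. Umodl1 stood at 8.10, 8.41 and 7.59% in transgenic and 8.51, 8.52 and 8.70% in wild-type libraries, a log2 difference of -0.10 (SE 0.045) with no overlap (two-sided exact permutation test, p = 0.1, the smallest possible here). Gfy alone gave 33.7% of the marker counts. With every marker weighing the same, the differences were -0.225 for Omp (SE 0.101), -0.205 for Stoml3 (SE 0.062) and -0.18 for Umodl1 (SE 0.049), each at p = 0.1 in the same exact permutation test. They were then -0.03 for both Pde1c and Pde4a (SE 0.077 each).

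**Figure D3:**
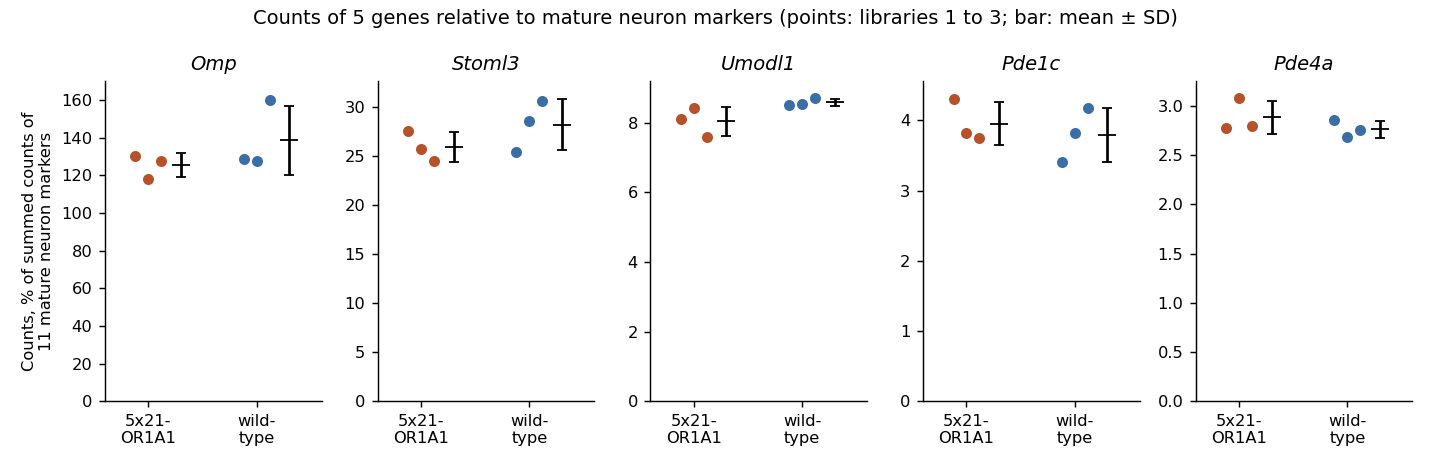
Counts of each gene as a percentage of the summed counts of 11 mature neuron markers in the same library, 5x21-OR1A1 left and wild-type right, with a bar for the mean ± SD of 3 libraries. The groups overlap for Omp, Stoml3, Pde1c and Pde4a, and for Umodl1 the transgenic libraries at 7.59 to 8.41% lie below the wild-type libraries at 8.51 to 8.70%.

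Genes of the transduction cascade itself had log2 fold changes of -0.81 to -0.36, beside -0.76 to -0.55 for the 5 genes. In edgeR 3 of 9 transduction genes fell, none rose and 6 passed in neither direction. Over all tested genes 2.20% fell and 0.519% rose. Their median log2 fold change was -0.66, and that of all tested genes was 0.02. Those that fell were Gng13, a gamma subunit of the G protein (-0.81, SE 0.15, edgeR adjusted p = 0.0292), Ric8b, an exchange factor for Golf (-0.74, SE 0.13, adjusted p = 0.0285), and Cnga4, a modulatory channel subunit (-0.68, SE 0.14, adjusted p = 0.0469). Each of the 9 had all transgenic libraries below all wild-type libraries, as had 12.5% of all tested genes. The channel subunit Cnga2 (-0.66, adjusted p = 0.0728) and the chloride channel Ano2 (-0.67, adjusted p = 0.0692) did not pass in edgeR. Without any single transgenic library or without wild-type library 2 or 3 none of the 9 was called. In those fits 0.692% to 1.86% of all genes were called lower.

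Other genes that end the response or clear calcium gave another picture. Of 17 tested, 0 fell and 0 rose in edgeR, and the median was 0.03 with 7 values below 0. At an unadjusted p under 0.05, 2 lay lower and 2 higher, DESeq2 called 2 lower and limma-voom called 0. Over all genes DESeq2 called 4.71% lower and limma-voom 2.07%. The share of all genes at an unadjusted p under 0.05 is not given here. Counts at that threshold, for this and the other lists, thus have no background and are a description. Without wild-type library 1, edgeR called 1. Calm2, which encodes calmodulin, the protein that closes the channel and activates Pde1c, had a log2 fold change of -0.43 (edgeR adjusted p = 0.116). Atp2b4, a calcium pump of the plasma membrane, was at 0.47 (adjusted p = 0.133). Slc24a4, the sodium, calcium and potassium exchanger of the cilia, was at 32.8 ± 3.30 CPM in transgenic and 37.4 ± 5.14 CPM in wild-type tissue (SD, n = 3 each; -0.19, adjusted p = 0.472 in edgeR). Grk3, a receptor kinase of olfactory desensitization, was at 21.2 ± 0.541 CPM in transgenic and 17.1 ± 1.89 CPM in wild-type tissue (SD, n = 3 each; 0.31, edgeR adjusted p = 0.177). The arrestin gene Arrb2 had a value of -0.10 and the calcium pump gene Atp2b1 of 0.03. Many of these genes are used by other cells of the tissue too, and the difference between this list and the 5 genes was not tested.

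**Figure D4:**
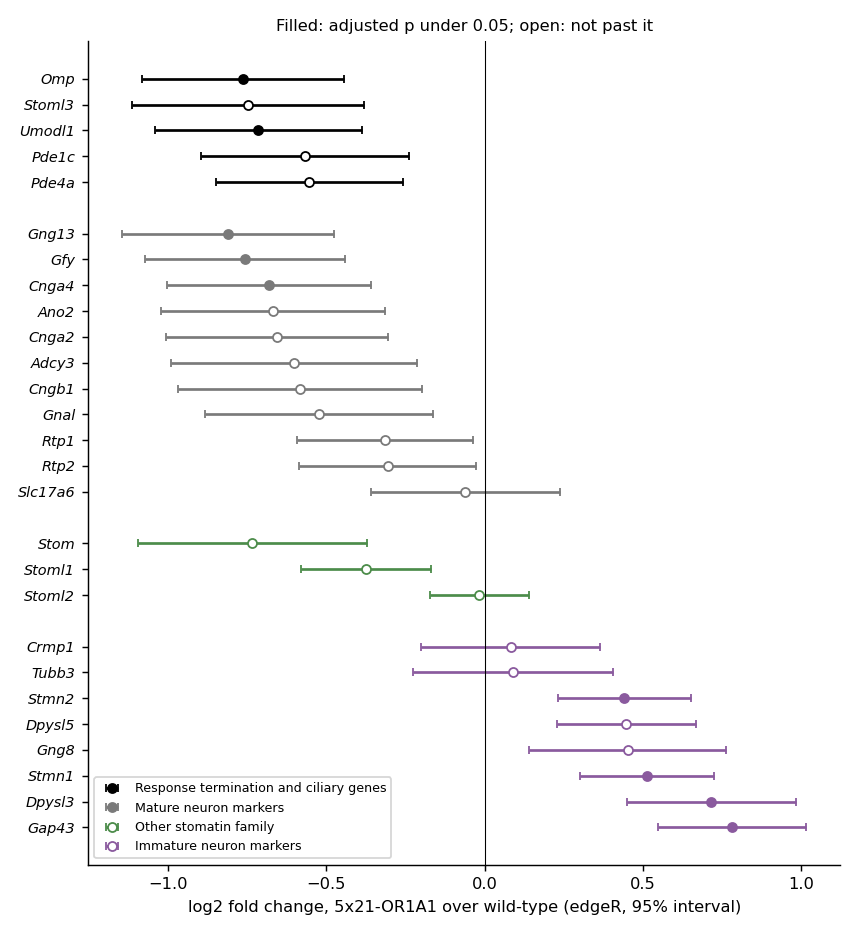
Log2 fold changes (5x21-OR1A1 over wild-type) with 95% intervals from the edgeR fit for the 5 tested genes, 11 mature neuron markers, 3 other stomatin family genes and 8 immature neuron markers. Filled points passed an adjusted p of 0.05. The 5 genes lie between -0.76 and -0.55, and the immature neuron markers between 0.08 and 0.78.

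The phosphodiesterase family was read as a whole to place Pde1c and Pde4a. Reads were enough for a test in 15 of 22 other phosphodiesterase genes. Of these 1 rose and 1 fell, 13 passed in neither direction, and their median log2 fold change was 0.27. Pde8a, a cAMP phosphodiesterase, rose to 31.4 ± 2.17 CPM in transgenic tissue, against 19.8 ± 0.809 CPM in wild-type tissue (SD, n = 3 each). Its log2 fold change was 0.66 (SE 0.08, edgeR adjusted p = 0.00739). The call held without any single library, at adjusted p of 0.0198 to 0.0449 in edgeR. Pde6d, whose product carries prenylated proteins to cilia and membranes, fell to 149 ± 4.94 CPM in transgenic tissue, against 206 ± 18.5 CPM in wild-type tissue (SD, n = 3 each; -0.46, SE 0.09, edgeR adjusted p = 0.0342). It was not called without any of the 3 transgenic libraries or without wild-type library 2 or 3, at adjusted p of 0.0710 to 0.182.

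Among the 12 of these genes with a mean of at least 5 CPM, 10 did not pass the edgeR test, 7 with values above 0 and 3 below. The nearest to the threshold was Pde4d, at 9.29 ± 0.951 CPM in transgenic and 6.10 ± 0.336 CPM in wild-type tissue (SD, n = 3 each; 0.61, edgeR adjusted p = 0.0546). Pde3b had a value of 0.67, Pde1b of 0.57, Pde8b of 0.45, Pde5a of 0.27, Pde7a of 0.27 and Pde4b of 0.06. Pde9a had a value of -0.15, Pde1a of -0.19 and Pde7b of -0.38. Per length, Pde6d was the most abundant at 68.5 CPM per kb in transgenic and 94.5 in wild-type tissue, ahead of Pde4a and Pde1c. Pde7b stood at 6.50 CPM per kb in transgenic and 8.44 in wild-type tissue, and Pde8a at 7.77 in transgenic and 4.90 in wild-type tissue. Pde2a, known from neurons that carry guanylyl cyclase D, had at most 1 count in any library. Its mean was 0.0123 CPM in transgenic and 0.0106 CPM in wild-type tissue, and Pde4c and Pde6b were listed at 0. Whether the transcripts of these 3 genes were absent from the tissue was not tested.

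**Figure D5:**
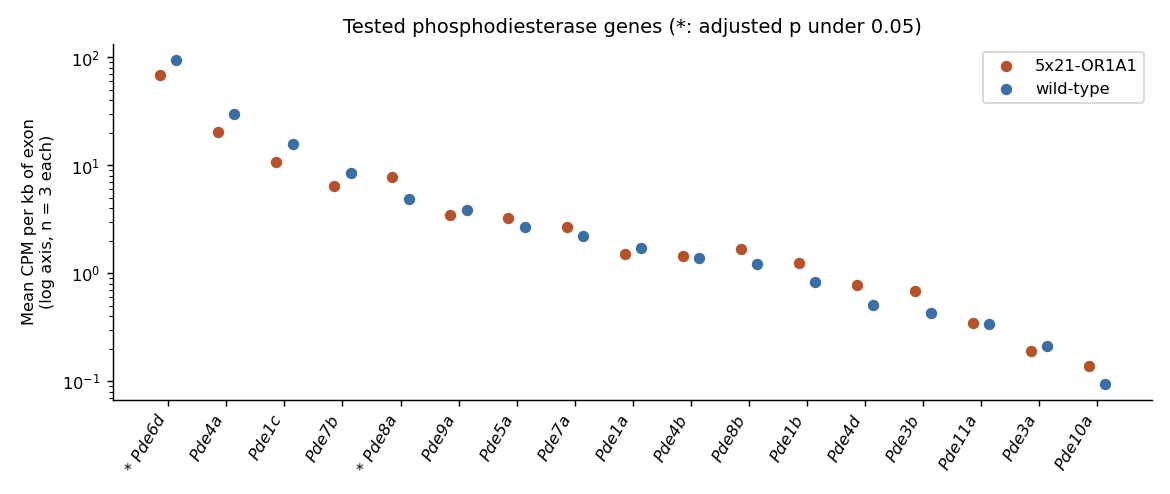
Mean CPM per kb of exon (logarithmic axis, n = 3 each) of the 17 tested phosphodiesterase genes, 5x21-OR1A1 left and wild-type right of each tick, ordered by the wild-type mean. Pde6d, Pde4a and Pde1c lie highest with the transgenic mean below, and Pde8a, marked as called, has its transgenic mean above at 7.77 against 4.90.

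Stoml3 was next compared with the rest of its family. Stom, which encodes stomatin, had 1673 ± 91.7 CPM in transgenic and 2783 ± 535 CPM in wild-type tissue (SD, n = 3 each), with a log2 fold change of -0.73 (SE 0.16, edgeR adjusted p = 0.0544). Per length it stood close to Stoml3, at 592 CPM per kb in transgenic and 985 in wild-type tissue. The log2 fold change of Stoml1 was -0.38 (edgeR adjusted p = 0.0780), and that of Stoml2, a mitochondrial member, was -0.02 (adjusted p = 0.930). So 0 of 3 tested passed in edgeR, while 2 lay lower at an unadjusted p under 0.05, DESeq2 called 2 lower and limma-voom called 1 lower. DESeq2 called 4.71% of all its genes lower and limma-voom 2.07%.

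Genes around carnosine were read in place of Carns1. Of 7 tested, 1 fell, 0 rose and the median was -0.15. Gadl1, whose product makes beta-alanine, a building block of carnosine, fell to 107 ± 5.90 CPM in transgenic tissue, against 168 ± 30.7 CPM in wild-type tissue (SD, n = 3 each; -0.65, SE 0.13, edgeR adjusted p = 0.0433). It was not called without any of the 3 transgenic libraries or without wild-type library 2 or 3, at adjusted p of 0.0624 to 0.190. Cndp1 and Cndp2, the carnosine dipeptidases, had values of -0.15 and -0.16, and Slc15a2, a peptide transporter, of -0.06. Of 4 tested Bex genes, which include Bex1, a known partner of olfactory marker protein, 0 passed in edgeR, DESeq2 or limma-voom and 0 at an unadjusted p under 0.05. Their median was -0.06, with 0.42 for Bex1 (edgeR adjusted p = 0.321) and -0.52 for Bex4 (adjusted p = 0.433).

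For each gene the most similar patterns were sought over the 6 libraries, as the smallest root mean square difference in log2 CPM after each gene was centred on its own mean, among 10852 other genes with a mean of at least 10 CPM. Stom was the closest to Stoml3, at 0.031 log2 units, followed by Ric8b (0.045) and Cnga2 (0.054). Omp was closest to Gng13 (0.069), Stom (0.074) and Jakmip1 (0.076). Umodl1 was closest to Cnga4 (0.057), Kcnh3 (0.057), a potassium channel, and Tex52 (0.059). Pde1c was closest to Nsg1 (0.034), an endosomal protein of neurons, Tspan7 (0.042) and Pcolce2 (0.044), and Pde4a to Nyap2 (0.048), Kcnh3 (0.054) and Tom1 (0.055). Among the 5 genes themselves the distances ran from 0.083, between Stoml3 and Umodl1, to 0.174, between Omp and Pde4a. All these genes share the libraries and the difference between groups, so the distances are a description.

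Library totals ran from 27506217 to 35804712 counts, and counting error on the 5 genes was at most 1.59% in any library, well under the spread between replicates. Among the marker lists of other cells, only those of immature neurons and neuronal progenitors held genes called in the main edgeR fit. In edgeR 0.519% of all tested genes were called higher. Of 8 immature neuron markers 4 rose (median 0.45), namely Gap43 (0.78), Dpysl3 (0.72), Stmn1 (0.51) and Stmn2 (0.44), and their summed share was 0.162 to 0.172% in transgenic against 0.118 to 0.144% in wild-type libraries. Of 8 neuronal progenitor markers 5 rose (median 0.70), among them Insm1 (0.97), Neurod1 (0.84), Sox11 (0.74) and Top2a (0.60), at 0.0247 to 0.0282% in transgenic against 0.0143 to 0.0170% in wild-type libraries. Without transgenic library 1, 2 or 3 there were 1, 1 and 1 immature and 2, 1 and 1 progenitor calls, and without wild-type library 1, 2 or 3 there were 3, 3 and 3 immature and 4, 3 and 3 progenitor calls. In the same order these fits called 155, 175, 150, 626, 313 and 448 genes in either direction, of 19597 to 19794 tested. Most of these, 136, 152, 136, 472, 262 and 369 in that order, were lower in transgenic tissue, so the calls of higher genes were far fewer. No marker passed in edgeR among 5 sustentacular (1.57 to 1.72% in transgenic and 1.80 to 1.90% in wild-type libraries), 4 horizontal basal, 6 respiratory ciliated, 5 glial, 6 endothelial and fibroblast, 7 immune and 3 tested vomeronasal genes, with medians of -0.225, 0.06, 0.04, -0.12, 0.405, 0.09 and 0.44 in that order of lists. At an unadjusted p under 0.05, 2 sustentacular markers lay lower and 1 each of the basal, ciliated and endothelial and fibroblast markers higher, and 0 of the others passed. DESeq2 called 2 sustentacular markers lower and 1 ciliated marker higher, and limma-voom called 0 in these lists. Of all its genes DESeq2 called 4.71% lower, and the share it called higher is not given here. Among the lowest adjusted p-values of each list were those of Sult1c1 (-0.475) and Cyp1a2 (-0.36) of the sustentacular, Trp63 (0.27) and Krt5 (0.40) of the basal, Dnah5 (0.70) and Tekt1 (-0.10) of the ciliated, and Sox10 (-0.12) of the glial markers. Others were those of Kdr (0.56) and Pecam1 (0.39) of the endothelial and fibroblast, Cd68 (0.365) and Cd79a (0.48) of the immune, and Calr4 (0.44) and Vmn2r1 (0.45) of the vomeronasal markers, all as log2 fold changes. The vomeronasal channel gene Trpc2 was listed at 0, and whether its transcript was absent was not tested. The endothelial and fibroblast genes took 0.486 to 0.561% in transgenic and 0.194 to 0.485% in wild-type libraries.

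Xist and Y-linked counts marked 2 female and 1 male transgenic and 1 female and 2 male wild-type libraries. With sex as a covariate Omp was -0.70 (edgeR adjusted p = 0.0942), Umodl1 -0.69 (0.103), Stoml3 -0.66 (0.125), Pde4a -0.56 (0.134) and Pde1c -0.47 (0.159). The part of sex and of the other cell types in the values of the 5 genes was not tested.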

How the data were processed

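Poly-A RNA of dissected olfactory epithelium was made into libraries that do not keep strand, per the labels' protocols. The authors deposited raw counts per gene symbol, without normalization. The submitters' processing notes name TopHat2 2.1.1, HTSeq 0.9.1 and the build GRCm38.p5; annotation release and counting options were not given in the sources used here. Coordinates, exon lengths and overlaps came from a GENCODE annotation of GRCm38, which held 49627 of the 53686 symbols once.

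Genotypes were compared with edgeR 4.0.16 (R 4.3.3). Scaling was by TMM, genes were kept by the default filter (minimum count 10, minimum total 15), and the quasi-likelihood p was adjusted by Benjamini-Hochberg over the 19267 genes kept. Each SE is the size of the log2 fold change divided by the square root of F. The script was tested on simulated data. Ratios within libraries were compared with two-sided exact permutation tests. Replicates differed far beyond counting noise, and counting errors given cover that noise only. Alternatives were DESeq2 1.42.0, limma-voom (limma 3.58.1), other scalings and filters, covariates and left-out libraries.

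The genes and lists were chosen with earlier results of these data known. Genes named with values are the 6 genes, the called genes of each list or the 2 of lowest adjusted p, other phosphodiesterases whose mean reached 5 CPM, and the 3 genes most similar to each of the 5. Others were named for their known role, after their values had been seen. Some genes that this rule takes are not reported here.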

Additional observations from a re-analysis of the deposited data

How the results depend on the processing

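Leaving out 1 library gave 150 to 626 changed genes over all genes, and 0 to 4 called among the 6 genes, 0 to 5 in the transduction cascade, 0 to 1 in response termination and 1 to 2 among other phosphodiesterases. The fold changes of the 5 genes kept their sign without each library, at -0.88 to -0.43. Per marker count, leaving out 1 library gave -0.20 to -0.03 for Omp, -0.19 to -0.06 for Stoml3, -0.13 to -0.06 for Umodl1, -0.02 to 0.13 for Pde1c and 0.01 to 0.09 for Pde4a. The summed share of the 6 genes differed by -0.84 to -0.64.

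Scaled to mature neuron markers, which set the median of all genes at 0.625, 13053 genes changed, with 0 of the 6 genes, 0 of the cascade, 13 in response termination and 11 other phosphodiesterases called. Since 7 of the cascade genes are themselves among these markers, this scaling holds them near 0, and their lack of calls is no separate result. Pde1c was then 0.06, Pde4a 0.06 and Pde6d 0.16, turned in direction; Omp was -0.14, Stoml3 -0.12 and Umodl1 -0.09. DESeq2 called 1195 genes in all, with 5 of the 6 genes, 9 of the cascade and 2 in response termination. Without a filter 5 of the 6 genes and 5 of the cascade were called. With sex as a covariate 289 genes changed, with 0 of the 6 genes, 0 of the cascade and 1 other phosphodiesterase. At an adjusted p under 0.01, 154 genes changed, with 0, 0 and 1. With every marker weighing the same, Pde4a was -0.03 and Umodl1 -0.18 per marker. What causes these shifts was not tested.

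The labels do not say whether the replicate numbers pair the libraries. Deviations of same-numbered libraries from their group mean correlated at -0.33, 0.07 and -0.17. Same-numbered libraries also differed in sex each time, so these values cannot decide whether the numbers pair them. With the replicate number as a block in edgeR 377 genes changed in either direction, and the share called lower is not given here. Umodl1 and Pde4a were called (edgeR adjusted p = 0.0292 and 0.0277) and Omp was not (0.0627). In the same fit 4 genes of the transduction cascade and 1 other phosphodiesterase were called.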
